A study of Rattus norvegicus with 24 samples.

Results

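The proteoglycans described here are 8 small leucine-rich proteoglycans (Bgn, Dcn, Lum, Fmod, Ogn, Aspn, Prelp and Omd) and the large proteoglycan versican (Vcan). They were chosen by gene symbol, though with earlier results of these data known, and all 9 were found among the 21425 genes of the deposited table. The study cultured wild-type testis cells of Sprague Dawley rats taken on postnatal day 5, with all cell types mixed, in a serum-free Matrigel culture, and measured polyadenylated RNA by sequencing. The baseline experiment used 1 litter and followed it from the starting cells (labelled tissue) to culture days 3, 5 and 7, with no hormone added. All 3 libraries of each baseline group came from that litter, and p-values there measure technical spread, not differences among litters. The induction experiment used 3 litters, whose cultures were taken on day 10 at 0 h, before hormone. Further cultures received 50 mIU/mL luteinizing hormone (LH) and 20 mIU/mL follicle-stimulating hormone (FSH) in fresh medium and were sequenced at 2, 12 and 48 h. Each induction library combined 3 cultures of 1 litter, with 3 litters per time. Cultures without hormone at the later hours were not analysed here, and an effect of the hormones cannot be told apart from one of the medium change or of elapsed time.

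Small leucine-rich proteoglycans are secreted proteins built on leucine-rich repeats, which bind collagen fibrils and control how the fibrils assemble and space themselves. Biglycan (Bgn), decorin (Dcn) and asporin (Aspn) form one class, of which biglycan and decorin carry chondroitin or dermatan sulfate chains and bind growth factors such as TGF-beta. Lumican (Lum), fibromodulin (Fmod), prolargin (Prelp) and osteomodulin (Omd) form another class, several members of which carry keratan sulfate, and osteoglycin (Ogn) belongs to a further class. Versican is a large chondroitin sulfate proteoglycan that binds hyaluronan and swells the matrix around moving and dividing cells. In the testis these molecules belong to the interstitium and the wall of the seminiferous tubules.

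Levels are in CPM, in which a gene's reads are scaled to the library total. These totals were 15.8 to 30.4 M reads, and 1 read was worth 0.0329 to 0.0633 CPM. Log2 fold changes were fitted on log2(CPM + 1), are given ± SE, understate the change of genes of low level, and come with adjusted p-values from limma over all genes tested. A gene was called higher or lower at an adjusted p under 0.05. A gene was tested if it had at least 1 CPM in at least 3 of the 12 libraries of an experiment. Omd failed this in the baseline experiment, at 0.0917 to 1.27 CPM with 2 libraries above 1 CPM, and the other members passed in both experiments. Aspn passed in the baseline through 4 libraries of days 5 and 7 alone. Markers of the labelled tissue were present in the fresh isolate, where the Sertoli cell hormone Amh stood at 232 ± 20.8 CPM (SD, n = 3) and the germ cell helicase Ddx4 at 38.9 ± 1.17 CPM (SD, n = 3).

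Bgn, Lum, Prelp and Vcan were higher in culture than in the fresh isolate at each of the 3 days sampled. Dcn was called higher at day 3, Aspn at days 5 and 7, and Fmod lower at day 5. Of the 8 members tested, 5 were higher and 0 lower at day 3, against 29.1% and 26.8% of all 13055 genes tested (55.9% in either direction). At day 5, 5 were higher and 1 lower, against 29.6% and 30.3% of all genes (59.9%). At day 7, 5 were higher and 0 lower, against 28.5% and 31.4% of all genes (60.0%). Aspn, which passed the filter only through culture libraries where it was high, is among the higher members at days 5 and 7. Without it 4 of 7 were higher on each of these days. These 3 comparisons share the tissue libraries. In bulk samples, more cells of a type and more RNA per cell cannot be told apart.

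**Figure D1:**
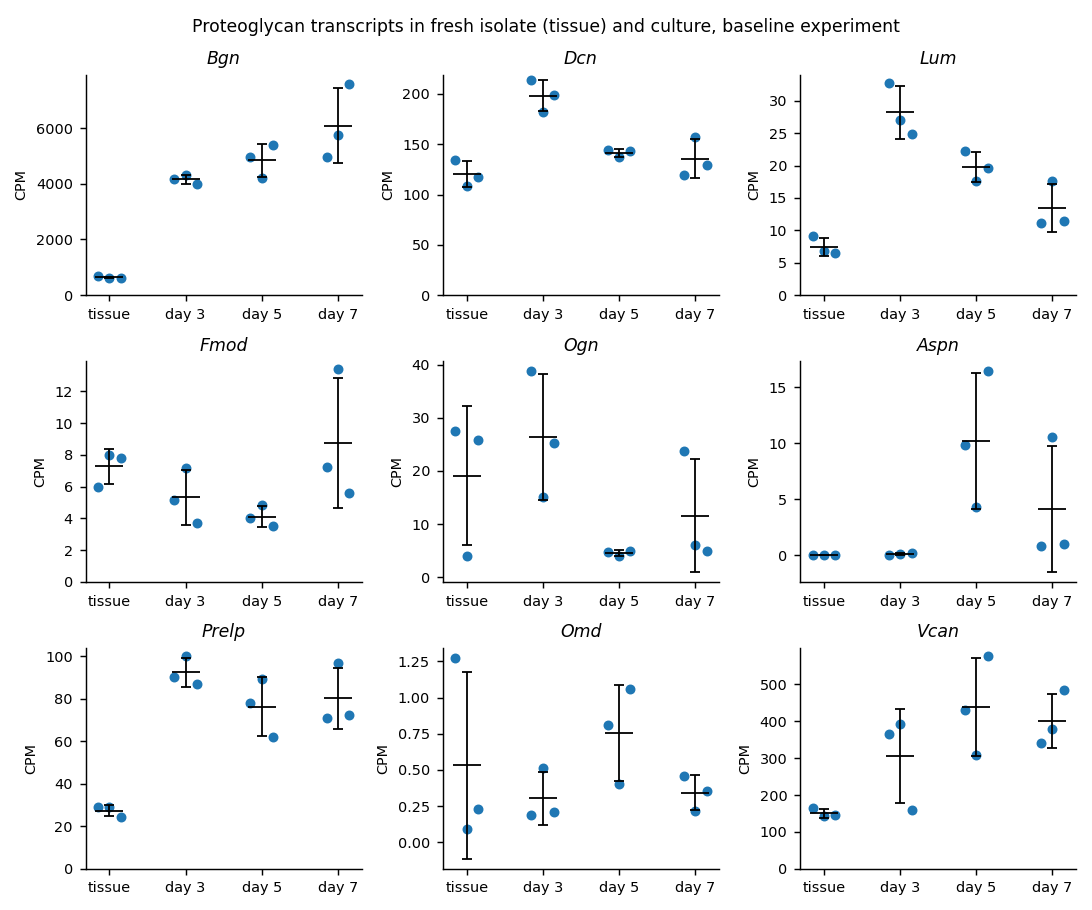
CPM of each member (y axis, linear) in the 4 baseline groups (x axis); points are the 3 libraries of a group and the black bar and whiskers their mean ± SD. Bgn was at 620 to 667 CPM in tissue and 4962 to 7583 CPM at day 7, Lum was highest at day 3, and Ogn and Aspn split within groups.

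Bgn, the biglycan core protein, stood at 667, 630 and 620 CPM in the 3 tissue libraries. At day 3 its level was 4190, 4324 and 4001 CPM, at day 5 it was 4957, 4213 and 5379 CPM, and at day 7 it was 4962, 5742 and 7583 CPM. Every culture library lay above every tissue library. The log2 fold change against tissue was 2.71 ± 0.15 at day 3 (adjusted p = 1.23e-08), 2.92 ± 0.15 at day 5 (adjusted p = 5.54e-09) and 3.23 ± 0.15 at day 7 (adjusted p = 2.23e-09), the last being 9.38-fold. In order of level the groups ran tissue, day 3, day 5 and day 7, but neighbouring culture days did not differ beyond their spread (0.21 ± 0.15, adjusted p = 0.55, and 0.31 ± 0.15, adjusted p = 0.371). Between day 7 and day 3 the libraries did not overlap and the change was 0.53 ± 0.15 (adjusted p = 0.0755), which passed with edgeR (adjusted p = 0.0373), with DESeq2 (adjusted p = 0.0035) and without day 5 replicate 3 (adjusted p = 0.0434) or day 7 replicate 1 (adjusted p = 0.042).

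Dcn, the related collagen-binding proteoglycan decorin, had its highest level at day 3. It stood at 134, 109 and 118 CPM in tissue, 214, 182 and 199 CPM at day 3, 144, 137 and 143 CPM at day 5, and 120, 157 and 130 CPM at day 7. All 3 day 3 libraries lay above the other 9, and day 5 also did not overlap tissue. Dcn was higher at day 3 than in tissue by 0.72 ± 0.11 (adjusted p = 0.000111) and then fell by 0.55 ± 0.11 between day 3 and day 7 (adjusted p = 0.0148). That later call was lost in the fit of those groups alone (adjusted p = 0.0526) and without day 3 replicate 1, day 7 replicate 1 or day 7 replicate 3 (0.0644 to 0.0834). Against tissue the changes were 0.24 ± 0.11 at day 5 (adjusted p = 0.0795) and 0.17 ± 0.11 at day 7 (adjusted p = 0.208, 95% interval -0.07 to 0.41). Without tissue replicate 1 the day 5 change passed (0.32, adjusted p = 0.0451). The ratio of Bgn to Dcn CPM within a library was 4.98 to 5.79 in tissue, 19.6 to 23.7 at day 3, 30.7 to 37.5 at day 5 and 36.5 to 58.55 at day 7. The ratios of tissue, day 3 and day 5 did not overlap, and this ratio was not tested.

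Aspn, asporin, was almost undetected in tissue and at day 3. The tissue libraries held 1, 1 and 0 reads and the day 3 libraries 1, 2 and 4 reads, against a counting limit of 3 reads for a count of 0. At day 5 it stood at 9.85, 4.28 and 16.4 CPM, and at day 7 at 0.803, 10.6 and 0.964 CPM. All day 5 libraries were above tissue and day 3, whereas at day 7 replicate 2 stood far above the other 2. Aspn was tested only because of its levels at days 5 and 7, so its changes and calls involving those days are given as a description. Against tissue the fitted change was 3.28 ± 0.57 at day 5 (adjusted p = 0.000255) and 1.74 ± 0.57 at day 7 (adjusted p = 0.0176), values that depend on the pseudocount because the tissue was near 0. The day 7 call was lost without day 7 replicate 2 (0.87, adjusted p = 0.0592) and with a pseudocount of 5 (0.69, adjusted p = 0.083). The rise from day 3 to day 5 was 3.18 ± 0.57 (adjusted p = 0.0602), and it passed with a pseudocount of 0.25 (adjusted p = 0.0233), with edgeR (adjusted p = 0.0418), with DESeq2 (adjusted p = 2.94e-05) and without day 5 replicate 2 (adjusted p = 0.0251) or day 7 replicate 2 (adjusted p = 0.00181).

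Among the other class, Lum and Prelp rose. Lum, the lumican core protein, stood at 9.08, 6.74 and 6.51 CPM in tissue and at 32.7, 27.1 and 24.8 CPM at day 3. It then stood at 22.2, 17.6 and 19.6 CPM at day 5 and 11.2, 17.6 and 11.5 CPM at day 7. The tissue libraries were lower than every culture library, and day 3 held the highest values. The change against tissue was 1.79 ± 0.19 at day 3 (adjusted p = 3.56e-06), 1.31 ± 0.19 at day 5 (adjusted p = 4.98e-05) and 0.76 ± 0.19 at day 7 (adjusted p = 0.00338). Between day 3 and day 7 Lum fell by 1.04 ± 0.19 (adjusted p = 0.00861), a call lost without day 3 replicate 1 (-0.93, adjusted p = 0.0531). Thus 2 of the 8 members tested, Dcn and Lum, were lower at day 7 than at day 3 and 0 were higher, against 2.44% and 1.36% of all genes tested (3.79%). With edgeR and with DESeq2 4 members were called, Bgn and Aspn being added as higher. Over all 13055 genes, edgeR called 455 and DESeq2 802. The fitted change of Aspn between these days was 1.64 ± 0.57 with limma (adjusted p = 0.157), and its adjusted p was 0.0193 with edgeR and 0.000497 with DESeq2. Between day 5 and day 3, limma called 0 of 8, against 0.115% of all genes (0.0613% higher and 0.0536% lower). An unadjusted limma p under 0.05 was found for 4 members and for 11.9% of all genes. For this pair of days edgeR called 1 member and DESeq2 2, against 16 and 131 of all 13055 genes. Between day 7 and day 5 limma called 0, against 0.0766% of all genes (0.0536% higher and 0.0230% lower). Here 3 members and 13.92% of all genes had an unadjusted limma p under 0.05. Calls of members were 0 with edgeR and 1 with DESeq2, against 10 and 242 of all genes.

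Prelp, which anchors basement membranes to the connective tissue beneath, stood at 28.9, 28.9 and 24.3 CPM in tissue. It reached 90.0, 99.9 and 87.1 CPM at day 3, 77.9, 89.2 and 61.7 CPM at day 5, and 71.0, 96.8 and 72.4 CPM at day 7. No culture library overlapped tissue, and the 3 culture days overlapped each other. The change against tissue was 1.72 ± 0.15 at day 3 (adjusted p = 5.99e-07), 1.43 ± 0.15 at day 5 (adjusted p = 2.88e-06) and 1.505 ± 0.15 at day 7 (adjusted p = 1.58e-06).

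Fmod, fibromodulin, which binds collagen close to its relative lumican, was called higher at none of the 3 days. It stood at 6.01, 8.03 and 7.83 CPM in tissue, 5.13, 7.15 and 3.70 CPM at day 3, 3.998, 4.84 and 3.49 CPM at day 5, and 7.23, 13.4 and 5.63 CPM at day 7. The day 5 libraries were all below tissue, and the other days overlapped it. The change at day 5 was -0.70 ± 0.27 (adjusted p = 0.0388). That call was lost with no filter on low values (adjusted p = 0.0687) and without tissue replicate 2, tissue replicate 3, day 5 replicate 1 or day 5 replicate 3 (0.0832 to 0.109). At day 3 the change was -0.42 ± 0.27 (adjusted p = 0.206) and at day 7 it was 0.16 ± 0.27 (adjusted p = 0.619, 95% interval -0.42 to 0.75).

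Ogn, osteoglycin, a further collagen-associated member, split within groups. It stood at 27.5, 3.99 and 25.8 CPM in tissue, 38.7, 15.1 and 25.3 CPM at day 3, 4.75, 3.99 and 4.92 CPM at day 5, and 23.8, 6.07 and 4.92 CPM at day 7. Tissue replicate 2 lay at the level of the day 5 libraries, and day 7 replicate 1 lay within the range of day 3. No change against tissue passed (0.71 ± 0.62, -1.496 ± 0.62 and -0.63 ± 0.62 at days 3, 5 and 7, with adjusted p of 0.348, 0.0525 and 0.403). Without tissue replicate 2, Ogn was lower at day 5 (-2.32, adjusted p = 0.00209) and at day 7 (-1.45, adjusted p = 0.0283). The day 5 change also passed with edgeR (adjusted p = 0.0172), with DESeq2 (adjusted p = 0.0142), in the fit of those groups alone (adjusted p = 0.0466) and without day 7 replicate 1 (adjusted p = 0.0295). Omd, a keratan sulfate proteoglycan best known from bone, was not tested in the baseline, and its libraries overlapped between all 4 groups.

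In the RefSeq annotation of the rat build GRCr8, Ogn, Omd and Aspn on chromosome 17 lie wholly within the span of Cenpp, a centromere protein gene. Dcn (chromosome 7), Fmod and Prelp (both chromosome 13) overlap a non-coding RNA locus in part, Aspn also overlaps a pseudogene in part, and Lum (chromosome 7), Vcan (chromosome 2) and Bgn (chromosome X) overlap no annotated gene. The libraries do not keep strand, so reads from bases that overlapping genes share cannot be told apart by strand. The levels of Ogn, Omd and Aspn are uncertain to that extent. Overlap was taken over whole gene spans, and overlap of exons was not analysed here. Cenpp was not analysed here.

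Vcan stood at 165, 143 and 145 CPM in tissue. Its levels were 365, 394 and 159 CPM at day 3, 431, 309 and 576 CPM at day 5, and 342, 378 and 484 CPM at day 7. Day 3 replicate 3 lay within the tissue range, and all libraries of days 5 and 7 lay above it. The change was 0.91 ± 0.29 at day 3 (adjusted p = 0.0168), 1.49 ± 0.29 at day 5 (adjusted p = 0.000627) and 1.39 ± 0.29 at day 7 (adjusted p = 0.001). The day 3 call was lost without tissue replicate 2, day 3 replicate 1 or day 3 replicate 2 (0.0503 to 0.0782). Differences between culture days did not pass.

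The promoters of Vcan, which was higher at all 3 days, and Fmod, which was called higher at none, are shown so that the upstream sequences of members with unlike courses can be set side by side. Entries for Bgn, Dcn and Prelp were not analysed here. Both are the 250 bases before the annotated start in RefSeq, build GRCr8, written 5′ to 3′ on the gene's strand, at chr2:22595956-22596205 (minus strand) for Vcan and chr13:48045317-48045566 (plus strand) for Fmod. Capitals mark matches to 6 motifs, each searched for on both strands. The GC box was read as GGGCGG and bound by zinc finger factors such as Sp1. The element of RNA polymerase II promoters named the TATA box was read as TATAAA. The site of the AP-1 factors was taken as TGANTCA, where N is any base. The cAMP response element was taken as TGACGTCA, and the SMAD site, the target of TGF-beta signalling, as CAGAC. The core of the M-CAT element, which TEAD factors bind, was taken as CATTCC. These motifs do not contain one another.
Vcan: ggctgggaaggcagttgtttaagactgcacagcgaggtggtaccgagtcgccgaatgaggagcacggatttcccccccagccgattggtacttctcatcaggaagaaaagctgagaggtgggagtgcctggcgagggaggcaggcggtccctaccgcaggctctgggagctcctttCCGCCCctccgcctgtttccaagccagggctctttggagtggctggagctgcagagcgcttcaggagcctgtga
Fmod: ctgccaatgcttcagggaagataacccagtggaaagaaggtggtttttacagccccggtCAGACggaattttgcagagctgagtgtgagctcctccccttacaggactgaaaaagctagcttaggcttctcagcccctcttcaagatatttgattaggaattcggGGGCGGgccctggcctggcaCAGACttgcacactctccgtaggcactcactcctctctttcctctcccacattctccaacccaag
The Vcan window held 1 GC box, 74 bases before the start and read on the other strand. The Fmod window held 1 GC box, 85 bases before the start, and 2 SMAD sites, 191 and 65 bases before it. Among 33360 distinct windows of the same length, 30.5% held a GC box and 42.95% a SMAD site. TATA box, AP-1 site, cAMP response element and M-CAT core letters were in neither window, and 12.9%, 6.35%, 1.59% and 12.1% of all windows held them. Base composition was 61.6% G or C in Vcan and 52.8% in Fmod. Windows of Lum, Ogn, Aspn and Omd were searched as well and are not shown. That of Lum, also higher at all 3 days, held 3 SMAD sites and 0 GC boxes. The Ogn window held 1 SMAD site, 1 M-CAT core and 2 TATA box matches, and those of Aspn and Omd held no match. The 2 TATA box matches overlap in 1 stretch, 1 on each strand, 224 and 222 bases before the start. An overlapping window of another Vcan start held the same GC box. The annotated starts used for Lum, Ogn, Aspn and this other Vcan window are not at the outer end of the gene. Those of the Vcan and Fmod windows shown, and of the Omd window, are. A link between these motifs and the courses was not tested.

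**Figure D2:**
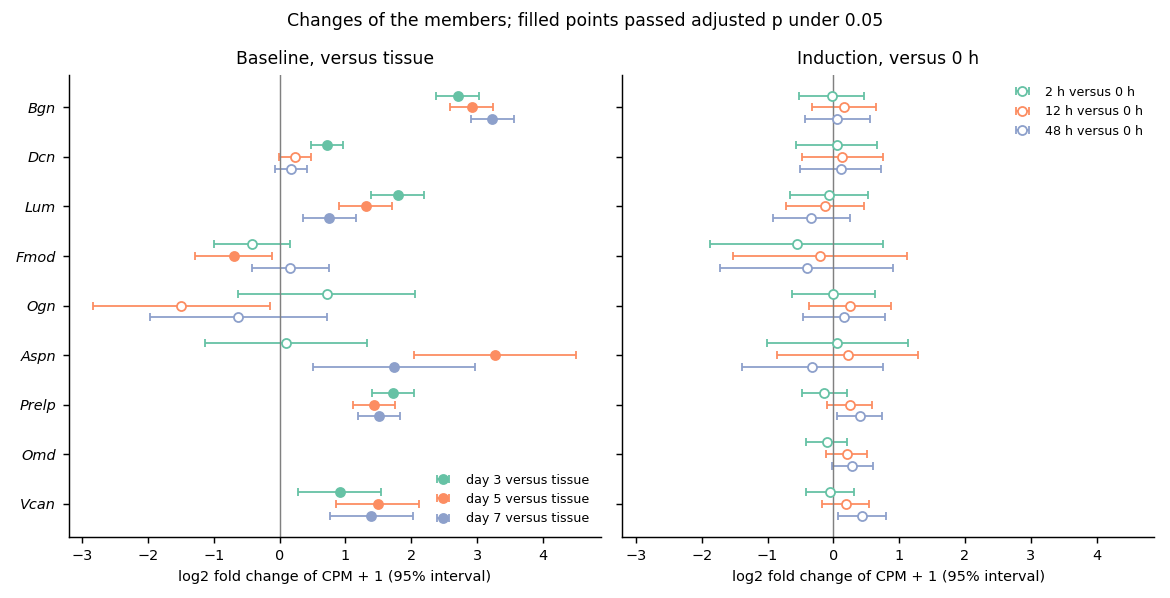
Log2 fold change of each member (x axis, on CPM + 1, with 95% intervals) against tissue in the baseline experiment (left) and against 0 h in the induction experiment (right); filled points passed an adjusted p under 0.05. Bgn, Lum, Prelp and Vcan are filled at all 3 days, and no point is filled after hormone.

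Enzymes that build the sugar chains were measured beside the core proteins. In the list for the linker, chondroitin and dermatan sulfate, 16 of 22 genes were higher at day 3 and 2 lower, 13 and 0 at day 5, and 16 and 1 at day 7. The median log2 fold change was 0.63, 0.63 and 0.76, against 0.02, -0.03 and -0.05 over all genes tested. In either direction 81.8%, 59.1% and 77.3% of the list were called, against 55.9%, 59.9% and 60.0% of all genes tested, so the day 5 share was near that of all genes. By direction, 29.1%, 29.6% and 28.5% of all genes were called higher and 26.8%, 30.3% and 31.4% lower. Chst7, a sulfotransferase of chondroitin, rose from 3.84 to 35.9 CPM at day 7 (2.94 ± 0.15, adjusted p = 5.21e-09). Dse, the epimerase that turns chondroitin into dermatan sulfate, rose from 15.9 to 105 CPM (2.66 ± 0.10, adjusted p = 3.38e-10). Chst14, which sulfates dermatan, and Chpf2, of chondroitin polymerization, rose at day 7 by 1.56 ± 0.13 and 1.62 ± 0.16. Chsy1, a chondroitin synthase, was lower at day 3 (-0.35 ± 0.12, adjusted p = 0.0215) and day 7 (-0.42 ± 0.12, adjusted p = 0.00706), and Chst13, another sulfotransferase, was lower at day 3 (-0.52 ± 0.20, adjusted p = 0.038). Those genes were picked out after their values were seen. The day 3 call of Chsy1 was lost without tissue replicate 1, tissue replicate 2 or day 3 replicate 2 (0.0684 to 0.0761). That of Chst13 was lost with a pseudocount of 5 (adjusted p = 0.072) and without tissue replicate 1, 2 or 3 or day 3 replicate 1 or 2 (0.068 to 0.137).

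For keratan sulfate, 4 of the 5 genes tested were higher at day 3 and 0 lower, and 3 were higher and 1 lower at days 5 and 7. The median was 0.78, 0.77 and 1.402. On each day 80% of the 5 genes were called, against 55.9%, 59.9% and 60.0% of all genes tested. Chst2, a sulfotransferase of N-acetylglucosamine, rose from 12.2 to 152 CPM at day 3 (3.53 ± 0.23, adjusted p = 4.65e-08). B3gnt7 and B4galt4, which extend the chain, rose at day 7 by 1.41 ± 0.15 and 1.402 ± 0.18. Chst1, which sulfates its galactose, fell from 46.4 to 27.2 CPM at day 5 (-0.82 ± 0.25, adjusted p = 0.0106).

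Versican's hyaluronan partners and its proteases were taken as lists of their own. Of 12 genes tested for hyaluronan synthesis, binding and breakdown, 7 were higher and 4 lower at day 3, and 7 and 3 at days 5 and 7, with medians of 0.83, 0.89 and 0.72. The shares called in either direction were 91.7%, 83.3% and 83.3%, against 55.9%, 59.9% and 60.0% of all genes tested. Hapln1 passed the filter only through culture libraries. The hyaluronan receptor Cd44 rose from 10.96 to 84.8 CPM at day 3 (2.85 ± 0.14, adjusted p = 3.06e-09), and Hyal1, which degrades hyaluronan, rose from 4.67 to 30.4 CPM at day 7 (2.47 ± 0.19, adjusted p = 1.79e-07). The synthase Has1 fell from 13.6 to 1.44 CPM at day 3 (-2.60 ± 0.22, adjusted p = 5.10e-07), and the link protein Hapln3 fell by 1.88 ± 0.22 at day 5. Of 6 proteases that cleave versican, 4 were lower and 0 higher on each of the 3 days, with medians of -1.11, -1.06 and -0.92. That is 66.7% called, against 26.8%, 30.3% and 31.4% of all genes called lower. In either direction the share was also 66.7%, against 55.9%, 59.9% and 60.0% of all genes. Adamts9 fell from 105 to 30.9 CPM at day 7 (-1.77 ± 0.18, adjusted p = 1.93e-06) and Adamts1 from 183 to 75.8 CPM at day 3 (-1.29 ± 0.16, adjusted p = 1.72e-05). Adamts15 fell by 1.95 ± 0.33 at day 5 and Adamts4 by 1.11 ± 0.21 at day 3.

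Among proteoglycans of the cell surface, 5 of 11 were higher and 1 lower at day 3, 7 and 1 at day 5, and 8 and 0 at day 7, with medians of 0.58, 0.70 and 0.88. The shares called in either direction were 54.5%, 72.7% and 72.7%, and that of day 3 was near the 55.9% of all genes. The syndecan Sdc2 rose from 72.6 to 635 CPM at day 7 (3.03 ± 0.29, adjusted p = 1.17e-06). The glypicans Gpc6 and Gpc1 rose by 2.18 ± 0.13 at day 7 and 1.64 ± 0.16 at day 3, and Cspg4, the NG2 proteoglycan of pericytes, by 1.43 ± 0.26 at day 7. The glypican Gpc3, named after its values were seen, was lower at day 3 (-1.31 ± 0.21, adjusted p = 0.000167) and day 5 (-0.92 ± 0.21, adjusted p = 0.00214). Of 8 other matrix proteoglycans, 4 were higher and 1 lower at day 3, 3 and 1 at day 5 and 2 and 1 at day 7, with medians of 0.20, 0.36 and 0.37. The shares called, 62.5%, 50% and 37.5%, were near or below those of all genes (55.9%, 59.9% and 60.0%). Acan passed the filter only through tissue libraries, and Prg4 and Esm1 only through culture libraries. Agrin (Agrn), testican-2 (Spock2) and the collagen Col18a1 rose by 0.61 ± 0.11 at day 7, 0.60 ± 0.09 at day 3 and 0.56 ± 0.17 at day 3. Acan, the aggrecan of cartilage and versican's close relative, stood at 3.58 to 4.24 CPM in tissue and at most 0.746 CPM in culture. It was tested only because of its tissue level, so its fitted changes of -1.97 ± 0.23, -1.89 ± 0.23 and -1.81 ± 0.23 at days 3, 5 and 7 are given as a description, and it was named after its values were seen. Only 4 of 11 other small leucine-rich proteoglycans and relatives could be tested, of which Tsku rose at day 5 (0.68 ± 0.13, adjusted p = 0.000542) and Epyc, epiphycan, named after its values were seen, was lower at day 7 (-0.86 ± 0.23, adjusted p = 0.0049).

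**Figure D3:**
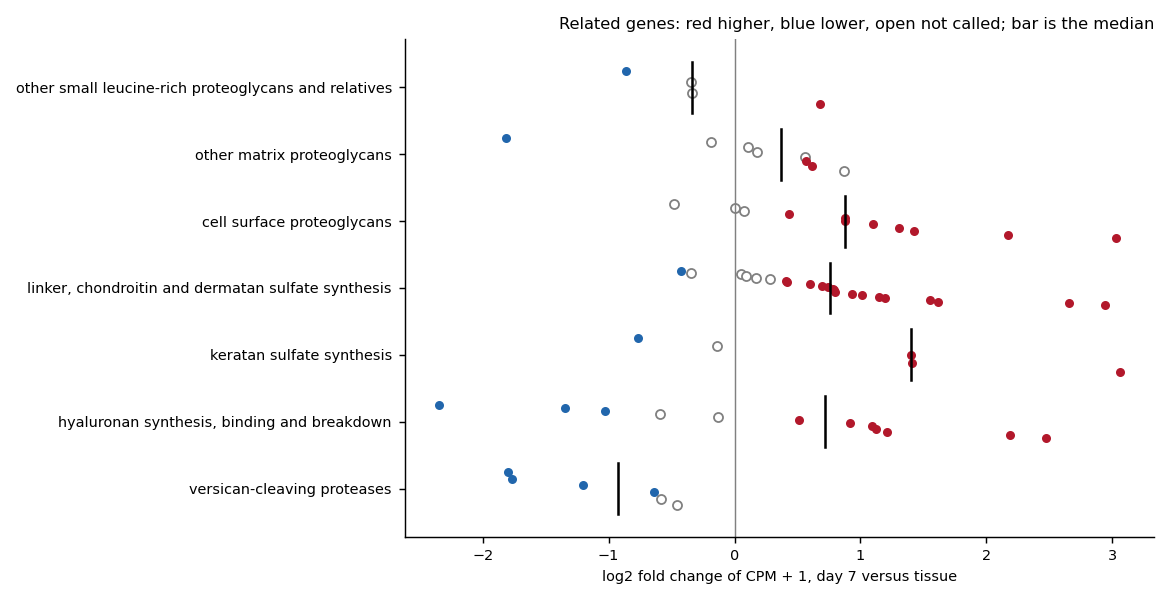
Log2 fold change on CPM + 1 at day 7 against tissue (x axis) for each tested gene of 7 related lists (y axis); red points were higher, blue lower and open points not called, and the black bar is the list's median. The median was 0.76 for the linker, chondroitin and dermatan sulfate list and -0.92 for the versican-cleaving proteases.

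Markers of cell types that make matrix moved in the same comparisons. For the counts below, 28.5% of all genes tested were called higher at day 7 and 31.4% lower (60.0%). The summed level of 8 stromal fibroblast markers was 5008 to 5752 CPM in tissue, 7745 to 8586 CPM at day 3, 8797 to 9880 CPM at day 5 and 14840 to 19090 CPM at day 7. Most of this sum came from the collagens Col1a1, Col1a2 and Col3a1. Their means were 2010, 470 and 2092 CPM in tissue and 8344, 1898 and 5389 CPM at day 7. At day 7, 4 of the 8 markers were higher and 3 lower, with Col1a1 and Col1a2 up by 2.02 ± 0.18 and 2.01 ± 0.31, while Dpt, a fibroblast matrix protein, fell at day 5 from 11.025 to 0.63 CPM. Between tissue and day 7 the mean of Lama2 went from 503 to 273 CPM and that of Dlk1 from 101 to 43.9 CPM. The sum of 9 peritubular myoid markers was 1604 to 1785 CPM in tissue and 4687 to 5445 CPM at day 7, with 8 of 9 higher and 0 lower, and Synm, Actg2 and Tagln up by 3.36 ± 0.12, 2.77 ± 0.15 and 2.58 ± 0.15. The sum of 7 germ cell markers fell from 463 to 491 CPM in tissue to 57.5 to 80.7 CPM at day 7, with 7 of 7 lower. The sum of the 4 mesothelial markers in the table was 0.789 to 1.61 CPM in tissue and 67.6 to 168 CPM at day 7. Most of it at day 7 was Lrrn4, with a mean of 101 CPM. Both tested, Lrrn4 and Upk1b, were higher, but Lrrn4 passed the filter only through culture libraries, so its call is given as a description. The Sertoli sum was 2614 to 2706 and 4214 to 4607 CPM, and 5 of 8 were higher and 1 lower. The sums in tissue and at day 7 were 86.4 to 90.7 and 87.2 to 102 CPM for Leydig cells, 47.4 to 58.8 and 19.2 to 22.5 CPM for macrophages, and 95.5 to 111 and 105 to 116 CPM for endothelial cells. Members of these lists went opposite ways at day 7, with 2 higher and 3 lower of 6 for Leydig cells, 1 and 3 of 6 for macrophages and 1 and 2 of 4 for endothelial cells. The macrophage share called, 66.7%, was near that of all genes. Cyp17a1 (Leydig) and Tek (endothelial) passed the filter only through tissue libraries, and Adgre1 (macrophage) only through culture libraries. Any calls of theirs are given as a description. Insl3 rose from 5.04 to 45.6 CPM while Hsd17b3 fell from 47.6 to 17.8 CPM, and Kdr rose from 8.95 to 50.7 CPM while Vwf fell from 7.91 to 2.95 CPM. The part of these shifts in the changes of the proteoglycans was not tested. Among defining markers, Upk3b was at 0 in all day 5 libraries and Emcn in all day 7 libraries. In the induction experiment Insl3 of Leydig cells was at 0 in all 12 libraries. Its baseline means were 5.04 CPM in tissue and 30.9, 36.3 and 45.6 CPM at days 3, 5 and 7. The Leydig markers Star, Hsd17b3, Cyp11a1, Lhcgr and Cyp17a1 had means of 50.9, 17.3, 7.23, 2.18 and 0.898 CPM at 0 h. The translation factor Eef1a1 likewise averaged 7107 CPM in the baseline and 0.362 CPM in the induction libraries. Whether Insl3 was lost from the cells was not tested.

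By likeness of pattern over the 12 baseline libraries, among 9527 genes with a mean of at least 10 CPM, Bgn was closest to the cadherin Cdh11 (Pearson r = 0.997), the integrin Itgb3 (0.996) and RGD1306556 (0.995). Vcan was closest to Map1b (0.987), the fibrillin Fbn1 (0.983) and Uggt1 (0.975). Dcn was less closely matched, to Poglut3 (0.920), Ndrg1 (0.907) and C7 (0.907). These values describe libraries that share 1 litter and a large step between tissue and culture.

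After LH and FSH, no member passed the test at any time. With limma, 0 of the 9 members were called at 2 h, 12 h or 48 h against 0 h, where 0.00%, 0.00% and 0.394% of all 12450 genes tested were called (0.345% higher and 0.0482% lower at 48 h). Likewise 0 were called between 12 h and 2 h or between 48 h and 12 h, where 0.00% and 0.00% of all genes were. At an unadjusted p under 0.05, 0, 0 and 2 members passed at 2 h, 12 h and 48 h against 0 h, and 1 and 0 between later times. Of all genes tested, 10.66%, 2.498% and 12.96% did so at 2 h, 12 h and 48 h against 0 h. Between 12 h and 2 h and between 48 h and 12 h the shares of all genes were 13.29% and 6.795%. With edgeR, with DESeq2 and with litter as a block, 0 members were called in each of the 5 comparisons. The litters are paired by the labels, and with litter as a block the calls over all genes were 77, 0 and 541 at 2 h, 12 h and 48 h.

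Vcan and Prelp were the 2 members with an unadjusted p under 0.05 at 48 h. Vcan stood at 192, 174 and 192 CPM at 0 h in litters 1 to 3, 164, 140 and 252 CPM at 2 h, 217, 210 and 207 CPM at 12 h, and 232, 245 and 280 CPM at 48 h. All 3 litters were above all 0 h libraries at 12 h and at 48 h, and they went different ways at 2 h. The change at 48 h was 0.44 ± 0.17 (95% interval 0.08 to 0.80, limma adjusted p = 0.305), with adjusted p = 0.0857 with litter as a block and 0.0642 to 0.6 over 21 alternatives. Prelp stood at 46.4, 59.4 and 44.6 CPM at 0 h and 73.1, 69.5 and 56.2 CPM at 48 h. It was higher in 3 of 3 litters, by 0.64, 0.22 and 0.33 on the log2 scale, but the groups overlapped. Its change was 0.40 ± 0.16 (limma adjusted p = 0.313, and 0.122 with litter as a block).

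The intervals of the other members held 0 in the fit without litter. Bgn stood at 8218, 5945 and 8612 CPM at 0 h, 7636, 6046 and 8616 CPM at 2 h, 8489, 6890 and 9952 CPM at 12 h, and 7385, 6454 and 9998 CPM at 48 h. Its change at 48 h was 0.06 ± 0.22 (adjusted p = 0.935, 95% interval -0.43 to 0.55). Dcn changed by 0.11 ± 0.28 (interval -0.51 to 0.72), Lum by -0.34 ± 0.27 (-0.93 to 0.25) and Ogn by 0.16 ± 0.29 (-0.47 to 0.79). The intervals for Fmod (-1.72 to 0.91) and Aspn (-1.39 to 0.75) were the widest, and that for Omd was -0.03 to 0.60. Adjusted p was 0.43 to 0.935 for these 7 members at 48 h. These bounds include the spread between litters, and with litter as a block the intervals were narrower. They were -0.14 to 0.26 for Bgn, -0.12 to 0.34 for Dcn, -0.62 to -0.05 for Lum, -0.99 to 0.18 for Fmod, -0.02 to 0.34 for Ogn, -0.67 to 0.03 for Aspn and -0.01 to 0.58 for Omd. Within litters 1 to 3, the log2 change of Lum from 0 h to 48 h was -0.32, -0.48 and -0.21, and that of Omd was 0.34, 0.24 and 0.28. Ogn was higher and Aspn lower in 3 of 3 litters, and Bgn, Dcn and Fmod went different ways. With the block the adjusted p was 0.145 for Lum and 0.225 for Omd, and none of the 7 passed.

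**Figure D4:**
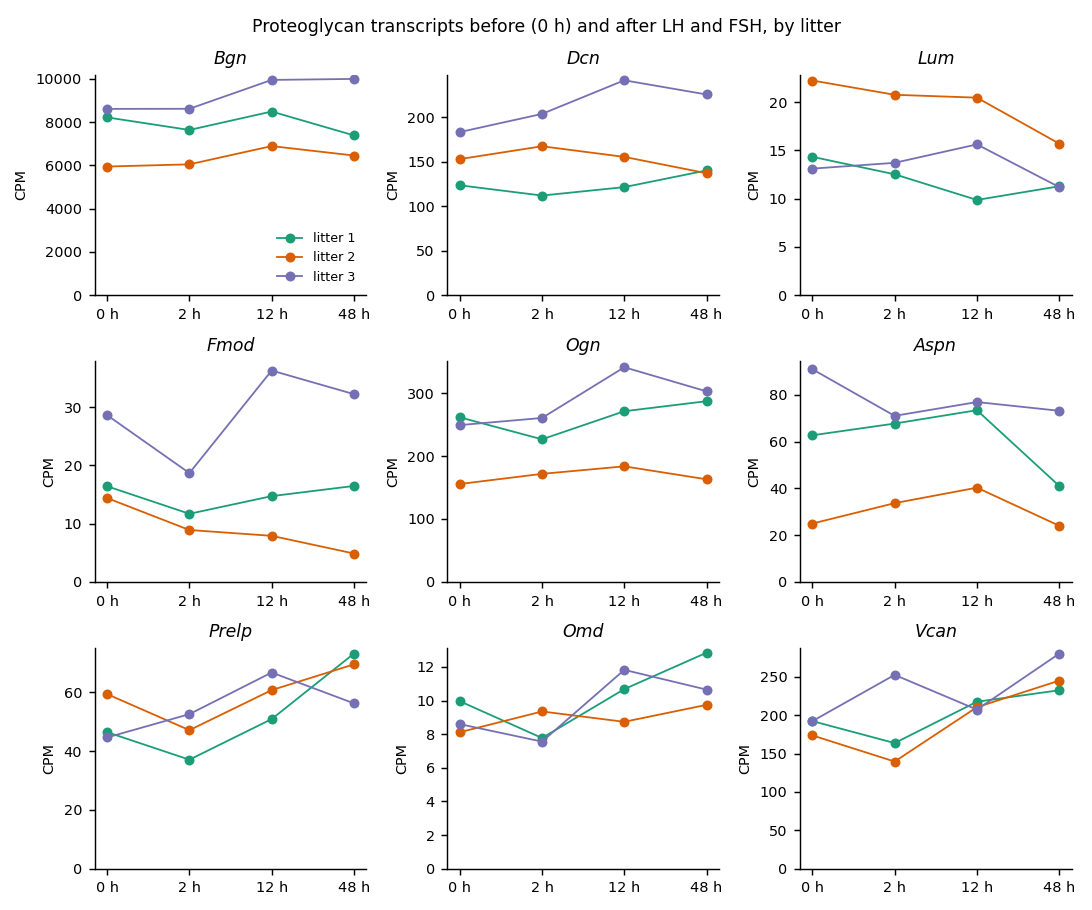
CPM of each member (y axis, linear from 0) at 0, 2, 12 and 48 h after LH and FSH (x axis, not to scale), with 1 line for each of 3 litters. Litter 2 was lowest at all 4 times for Bgn, Fmod, Ogn and Aspn and highest for Lum.

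The order of the litters recurred across the times for several members. Litter 2 had the lowest Bgn, Fmod, Ogn and Aspn at 4 of 4 times, and the highest Lum at 4 of 4 times. Litter 3 had the highest Bgn, Dcn, Fmod and Aspn at 4 of 4 times. Aspn averaged 61.2, 30.7 and 78.0 CPM over the 4 times in litters 1 to 3, and Lum averaged 12.0, 19.8 and 13.4 CPM. On the log2(CPM + 1) scale the SD of the 3 litter means exceeded that of the 4 time means for Bgn (0.277 and 0.081), Dcn (0.39 and 0.06), Lum (0.356 and 0.145), Fmod (0.814 and 0.244), Ogn (0.408 and 0.123) and Aspn (0.692 and 0.226). For Prelp (0.108 and 0.24), Omd (0.082 and 0.178) and Vcan (0.15 and 0.22) it was smaller. This pattern was seen in the values and was not tested. The stromal fibroblast sum ranged over 24080 to 38990 CPM at 0 h and 22730 to 49500 CPM at 48 h, and 1 of its 8 markers, the laminin Lama2, was called higher at 48 h (1.51 ± 0.28, adjusted p = 0.0471). That call was lost in 15 of 21 alternatives.

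By likeness over the 12 induction libraries, among 9325 genes, Bgn was closest to the collagens Col1a2 (r = 0.994) and Col1a1 (0.984) and to Sparc (0.978), an adaptor of collagen. Dcn was closest to S1pr3 (0.887), Bicd1 (0.844) and Nlrp1a (0.834), and Vcan to Fat1 (0.923), Lrba (0.923) and Myo5a (0.917). Libraries of a litter are related, so these values rest largely on 3 litters.

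Among the related lists, 1 gene was called after hormone. At 48 h, 0 of 22 genes of the linker, chondroitin and dermatan sulfate list were called by limma, with a median of -0.01 against -0.03 over all genes tested. Likewise 0 were called among the 5 keratan sulfate, 10 hyaluronan, 11 cell surface, 7 other matrix and 4 other leucine-rich genes tested. Of 5 versican-cleaving proteases tested, 1 was higher at 48 h, with a list median of 0.55. It was Adamts15, named after its values were seen, which went from 0.721 to 3.34 CPM (1.27 ± 0.23, adjusted p = 0.0418). That call was lost in 13 of 20 alternatives, among them leaving out any one 0 h library (0.105 to 0.162).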

How the data were processed

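RNA of 24 libraries in 8 groups of 3 was analysed. Values in CPM were deposited by the authors. Alignment was by STAR against the rat build mRatBN7.2, per the submitters' processing notes, and the counting tool and gene annotation are not given in the sources used here. Per the labels' protocols the libraries were poly-A selected and non-directional. All values were whole multiples of 1 read to within 0.01 read (100% of values). Whole reads were thereby recovered, with 2.93 to 4.71% of them outside the listed genes. Depth was 15.8 to 30.4 M reads per library, and read limits cover counting error only. Of 21425 genes, 19512 were found by symbol in the RefSeq table of GRCr8.

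Separate fits were made for the 2 experiments, on log2(CPM + 1), using limma 3.58.1 (R 4.3.3) with a term for group, a trend and Benjamini-Hochberg adjustment within each of 11 comparisons, two-sided. Genes with at least 1 CPM in at least 3 libraries were kept (13055 baseline, 12450 induction). The procedure was tested on simulated data. Alternatives used edgeR 4.0.16 and DESeq2 1.42.0 on recovered reads, other pseudocounts, filters and scalings, the groups compared alone, a replicate block, and leaving out each library. Over 18 same-litter pairs of induction libraries, deviations from the group means correlated across genes at a median of 0.482, and the labels name the litters, so these pair. The members and lists were chosen with earlier results of these data known. All 9 members were reported. From each pathway list, up to 4 called genes with the largest change and at least 5 CPM in the higher group were named (for markers, examples by the same rule, with sums and counts), and likeness was taken for Bgn, Dcn and Vcan. Levels were not tested between the experiments. Of 148 list symbols 5 were not analysed here.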

Additional observations from a re-analysis of the deposited data

How the results depend on the processing

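Counts of members called against tissue stayed within 1.5 times of 5, 6 and 5 (days 3, 5 and 7) under all 21 alternatives, and all 5 induction counts stayed at 0. Between culture days the counts were small and moved. For day 5 against day 3 (0 called) they were 1 with a pseudocount of 0.25, 1 with edgeR and 2 with DESeq2, and 0 to 1 when 1 library was left out. For day 7 against day 5 (0 called) the count was 1 with DESeq2 and 0 to 1 without 1 library. For day 7 against day 3 (2 called) it was 1 in the fit of those groups alone, 4 with edgeR, 4 with DESeq2, and 0 to 3 without 1 library. The cause was not tested. Over the members' single changes, 1915 values kept their side of the threshold, 15 lost the call and 22 gained it, and no called change turned its direction. In the baseline experiment the replicate number was shared by name only (median correlation -0.000715, 5 of 18 pairs above 0.1). With it as a replicate block the counts were 5, 7 and 5 against tissue, Ogn at day 5 being the added call (adjusted p = 0.0143). The litter block changed no member's call. Over all genes, calls at 48 h against 0 h were 49, and 541 with the litter block, 419 with DESeq2, 14 with no filter, 2 in the fit of those groups alone and 7 to 49 without 1 library. At 2 h they were 0, and 77 with the block, 378 with DESeq2 and 6 with edgeR or rescaled CPM. At 12 h they were 0, and 9 with DESeq2. Between 12 h and 2 h they were 0, and 368 with the block and 397 with DESeq2, and between 48 h and 12 h 0, 89 and 85. Between culture days DESeq2 called 131, 242 and 802 genes (day 5 against 3, 7 against 5 and 7 against 3), where limma called 15, 10 and 495. Low levels limit Aspn and Omd in the baseline experiment.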

Other observations

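Ogn, Omd, Aspn and their neighbour Ecm2, which lie within the span of Cenpp, had levels in the induction experiment that none of their baseline libraries reached. Ogn ranged from 3.99 to 38.7 CPM in the baseline and from 156 to 341 CPM in the induction libraries, Aspn from 0 to 16.4 and 24.0 to 90.9 CPM, and Omd from 0.0917 to 1.27 and 7.56 to 12.8 CPM. The ranges of Dcn were 109 to 214 and 112 to 242 CPM, and those of Prelp 24.3 to 99.9 and 37.1 to 73.1 CPM. For Bgn they were 620 to 7583 and 5945 to 9998 CPM, and for Fmod 3.49 to 13.4 and 4.87 to 36.3 CPM. Lum ranged over 6.51 to 32.7 and 9.85 to 22.2 CPM, and Vcan over 143 to 576 and 140 to 280 CPM. The experiments differ in day, litters and libraries, and the translation factor Eef1a1 had means of 7107 and 0.362 CPM over their libraries. The part of these differences in the levels above was not tested, and the experiments were not compared by a test.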
